A study of Mus musculus with 4 samples.

Results

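The promoter of mouse Hprt1 and its surroundings on the X chromosome are described here by 78 tiled regions, each read by a 60-base probe, out of 19805 on the arrays. They were chosen by position alone, as every probe in the 81 consecutive fragment numbers from 45286 to 45366, and 65 of these fragments carry at least 1 probe. Fragment 45326 is the one named for the promoter, with 35 regions upstream of it and 42 downstream. The material was DNA of undifferentiated mouse embryonic stem cells of the single line PGK12.1, labelled as female pluripotent cells, which grew asynchronously and received no treatment. Short nascent strands were set against total genomic DNA of the same cells on each of 4 two-colour arrays. The shorter strands, of 100–600 nt, were hybridised 2 times, and so were the longer ones, of 300–800 nt. These are DNA measurements, so the cell type could not be checked against markers. Strands had been taken from sucrose gradient fractions and digested with lambda exonuclease, and preparations of 300–800 nt had been accepted only when another CpG island promoter was enriched in them.

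Replication of a chromosome starts at origins (ORIs), where short RNA-primed strands are laid down and then grow outwards. Lambda exonuclease removes broken DNA but spares strands that carry the RNA primer, so a region close to an origin is over-represented among short nascent strands relative to total DNA. Hprt1 encodes hypoxanthine-guanine phosphoribosyltransferase, the purine salvage enzyme. It is an X-linked housekeeping gene, and its promoter lies in a CpG island, a stretch rich in C, G and CpG dinucleotides.

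The unit throughout is the log2 ratio of the nascent signal to the genomic signal after loess normalisation within each array, so 0 is the typical region and not the absence of strands. On the 300–800 nt arrays the nascent strands carried Cy3, and on the 100–600 nt arrays they carried Cy5. The print design and the software version changed with the fraction as well, so strand length and these factors cannot be told apart. The 300–800 nt arrays shared a slide and differed by an SD of 0.0921 over all regions, where repeated spots predict 0.111, and they were therefore counted as 1 sample in the tests, although the study's methods describe them as biological replicates. The 100–600 nt arrays differed by an SD of 0.348. Unless 4 arrays are named as replicates, every limma test between the fractions sets 1 sample of 300–800 nt strands against 2 of 100–600 nt strands. The 1 sample is assumed to vary like the 100–600 nt arrays. Tests above genomic DNA set the 100–600 nt mean against 0 in the same fit. Since 0 is the typical region, a region called above genomic DNA is one above the typical ratio of nascent to genomic signal. Of the 78 regions, 64 had a value on all 4 arrays. The p-values therefore rest on the spread between the 100–600 nt arrays, which the labels do not tie to separate preparations. That spread was mostly pooled over all tested regions, with a prior SD of 0.313 at 18.6 degrees of freedom. A region's own spread thus counted for little. The SE of the 100–600 nt mean was 0.216 in fragment 45327 and 0.219 in 45326, where the SDs between arrays were 0.027 and 0.25.

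The study's list of origins places 2 probes at the Hprt1 promoter, one in fragment 45326 and the other in the next fragment, 45327. They lie on the X chromosome at chrX:47508381-47508440 and chrX:47508767-47508826 (Ensembl mouse build 35), with 386 bases between their starts. The sequences of the regions nearest to the promoter are shown because they differ sharply in base composition over a short distance. They are printed in chromosome order, with CpG dinucleotides in capitals.
Fragment 45325, offset 20: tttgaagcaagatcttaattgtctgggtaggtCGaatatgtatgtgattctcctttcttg
Fragment 45326, offset 10: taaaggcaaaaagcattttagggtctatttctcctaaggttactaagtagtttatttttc
Fragment 45327, offset 20: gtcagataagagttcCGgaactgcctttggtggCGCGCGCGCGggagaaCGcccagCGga
Fragment 45328, offset 600: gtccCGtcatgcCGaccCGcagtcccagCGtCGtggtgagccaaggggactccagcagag
Fragment 45328, offset 330: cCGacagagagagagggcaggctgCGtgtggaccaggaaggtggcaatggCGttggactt
The region in fragment 45326 is 30.0% C+G and holds 0 CpG dinucleotides. The region in fragment 45327 is 65.0% C+G and holds 8, the highest number among the 78 regions and also the highest on the arrays. The first region of fragment 45328 holds the start codon of Hprt1, is 68.3% C+G and carries 5 CpG dinucleotides. The offset is the probe's distance within its fragment and runs against the chromosome coordinate, so offset 600 precedes offset 330.

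The 65.0% C+G region was also found in the RefSeq promoter of the gene, which is listed there as Hprt. The 250 bases before the gene start on the plus strand (GRCm38.p6, chrX:52987828-52988077) are printed here with the 60 bases of that region in capitals.
Hprt promoter: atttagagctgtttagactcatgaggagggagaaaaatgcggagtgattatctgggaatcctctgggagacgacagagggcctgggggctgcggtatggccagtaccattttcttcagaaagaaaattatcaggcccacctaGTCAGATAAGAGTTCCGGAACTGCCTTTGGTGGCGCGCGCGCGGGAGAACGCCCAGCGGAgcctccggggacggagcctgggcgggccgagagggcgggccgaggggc
The region covers chrX:52987970-52988029 in GRCm38.p6 and ends 48 bases before the annotated start. The 250 bases are 59.6% C+G and hold 17 CpG dinucleotides, against a median of 6 over the same window of 32851 RefSeq promoters. GGGCGG, the core of the GC box, occurs 2 times, both on the plus strand and between the probe and the gene start. It is held on either strand by 32.7% of these promoter windows. Neither CCAAT nor TATAAA was found on either strand, and 33.9% and 12.4% of the windows hold them.

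With loess, the most enriched of the 78 regions on every array was the CpG-rich region of fragment 45327. Its log2 ratio was 2.31 and 2.37 on the 300–800 nt arrays and 1.57 and 1.61 on the 100–600 nt arrays. The means of 2.34 ± 0.04 (SD, n = 2) and 1.59 ± 0.03 (SD, n = 2) correspond to 5.07 and 3.01 times the typical ratio of nascent to genomic DNA. Among all regions with a value it ranked 21 and 18 of 19805 on the 300–800 nt arrays, 20 of 18431 on the first 100–600 nt array and 23 of 16682 on the second. The study listed this promoter from these arrays, so its height in them is a description. With normexp background correction in place of the software's, the values were 1.64 and 1.10 in the longer strands and 0.52 and 1.57 in the shorter ones, and the means of 1.37 and 1.05 were still the highest of the 78 regions. On single arrays other regions were then higher. Offset 600 of fragment 45328 had 1.17 on the second 300–800 nt array, and offset 300 of fragment 45362 had 1.29 on the first 100–600 nt array.

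The signals behind these ratios were low for genomic DNA and from just under to above the array median for nascent strands. On the 300–800 nt arrays the nascent signal of the region was 1.66 times the array median on both arrays, and the genomic signal was 0.363 and 0.349 times the median. On the 100–600 nt arrays the nascent signal was 0.887 and 1.23 times the median, and the genomic signal 0.319 and 0.441 times. All 3 spots per 100–600 nt array and both spots per 300–800 nt array were well above background in both dyes, and 1 spot on the second 100–600 nt array was left out because the software marked it. The remaining spots ran from 1.35 to 1.78 and from 1.47 to 1.74 on the 100–600 nt arrays, and from 2.04 to 2.58 and from 2.21 to 2.53 on the 300–800 nt arrays. No spot of this region thus lay near 0. Low genomic signal moved with the high ratio in this region, and its part in the result was not tested.

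The 100–600 nt value of this region was above genomic DNA in the limma fit over all 15478 regions measured on every array (log2 ratio 1.59, SE 0.216, Benjamini-Hochberg adjusted p = 0.000133). Among the alternatives the adjusted p was highest with normexp background correction, at 0.0449. In the limma fit 7 of the 64 tested regions around Hprt1 (10.9%) were above genomic DNA, where the share over all regions tested was 3.79%. With median centring 3 of the 64 were left and with normexp 1. Of the 7, the other 6 had 100–600 nt means from 0.66 to 0.86, well under the CpG-rich region. Their 300–800 nt means ran from -0.79 to 0.81, so none of them stood out in the longer strands.

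No contrast between the listed promoter regions was tested. The AT-rich one, in fragment 45326, was high on the 300–800 nt arrays alone. Its log2 ratio was 1.52 and 1.37 on the 300–800 nt arrays, ranks 2 and 3 of the 78 regions. On the 100–600 nt arrays it was -0.03 and 0.32, ranks 46 of 74 and 15 of 68, and the fractions did not overlap. On the second 100–600 nt array 2 of its 3 spots were marked by the software, so that value rests on 1 spot. The nascent signal of the region on the 300–800 nt arrays was under the array median, at 0.771 and 0.781 times. Its genomic signal there was 0.330 and 0.368 times the median. Low genomic signal thus went with the high ratio here too, and its part was not tested. The mean log2 ratios were 1.45 ± 0.10 and 0.15 ± 0.25 (SD over the 2 arrays of a fraction). In the fit, where the longer strands are 1 sample, the difference was 1.30 (SE 0.380, limma adjusted p = 0.0449). The adjusted p was 0.0550 without 300–800 nt replicate 1 and 0.0360 without replicate 2, and it was 0.0723 with median centring in place of loess, 0.0874 with marked spots kept, 0.0582 with a C+G correction, 0.243 with each array divided by its SD and 0.723 with normexp. This call is thus at the edge of the threshold, and on simulated data the fit made more false calls than the threshold allows.

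On the 300–800 nt arrays, 4 neighbouring regions were high together. The nearest upstream region, fragment 45325, had 0.80 and 1.19, the promoter regions followed with means of 1.45 and 2.34, and the region over the start codon had 1.15 and 1.28. The next region upstream, in fragment 45323, was near 0 at -0.17 and 0.01. On the 100–600 nt arrays a single region of this group was high. Fragment 45325 had 0.00 and 0.10 there and the region over the start codon 0.13 and 0.12, both in the middle of the array. A run of high regions was not particular to the promoter. Farther upstream, fragments 45306 (offset 180), 45307, 45308 and 45309 had 300–800 nt means of 1.41, 0.86, 1.18 and 0.74. With normexp the first 3 of these had 0.65, 0.78 and 0.79, where fragment 45326 had 0.65. In the CpG-rich region itself the fractions differed by 0.75 (SE 0.374), which did not pass the test (limma adjusted p = 0.227). With the 4 arrays as replicates the same difference passed (adjusted p = 0.0159, and 0.0117 with the hybridisation number as a block), and with each array divided by its own SD the difference was 0.15 SD units (SE 0.708).

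**Figure D1:**
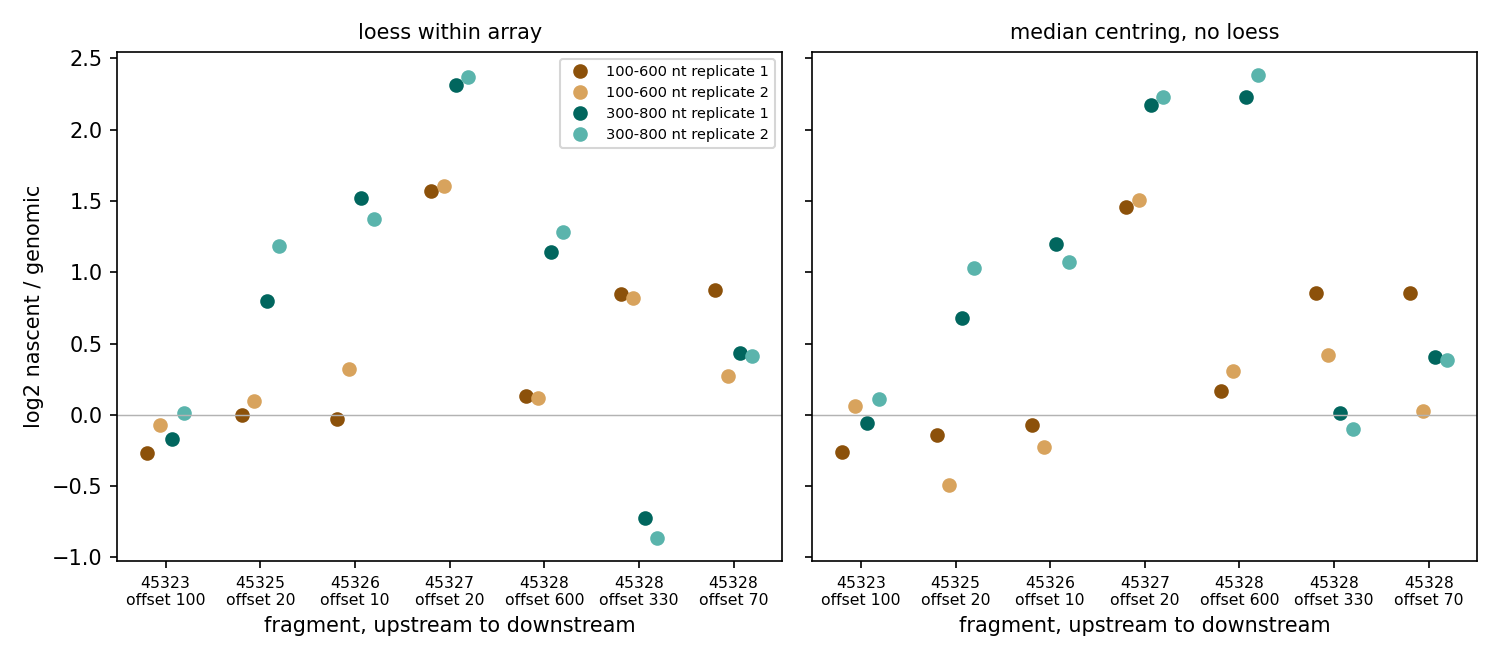
Log2 ratio of nascent to genomic signal (vertical axis) of the 7 regions nearest to the Hprt1 promoter, from upstream to downstream, with 1 point per array. The left panel uses loess within each array and the right panel median centring alone. Fragment 45327 lies between 1.46 and 2.37 on all 4 arrays in both panels, while the region at offset 600 of fragment 45328 rises on the 300–800 nt arrays from 1.15 and 1.28 with loess to 2.23 and 2.39 without it.

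The size of the downstream shoulder depended on the normalisation. The region over the start codon gave the brightest spots of this group, with a nascent signal 22.4 and 22.8 times the array median and a genomic signal 4.67 and 4.28 times the median on the 300–800 nt arrays. Loess removes a trend of the ratio with brightness, and with median centring alone the log2 ratios of this region were 2.23 and 2.39, the highest mean of the 78 regions. Its 100–600 nt values stayed low without loess, at 0.17 and 0.31. In the longer strands the highest mean of the stretch thus lay in fragment 45327 with loess and at the start codon with median centring. The software's own ratio gave nearly the same values as median centring, with a mean of 2.31 there in both, and is not a separate check. In the shorter strands the highest mean lay in fragment 45327 with loess and with median centring.

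The following region, at offset 330 of fragment 45328, showed the reverse order of the fractions. It had 0.85 and 0.82 on the 100–600 nt arrays and -0.73 and -0.86 on the 300–800 nt arrays, a difference of -1.63 (SE 0.374, limma adjusted p = 0.0142). On the first 100–600 nt array 2 of its 3 spots were marked, so that value rests on 1 spot. It also was above genomic DNA in the 100–600 nt strands (limma adjusted p = 0.0153), a call that was lost with median centring (0.104), normexp (0.0842) and the C+G correction (0.0832). With median centring its 300–800 nt values were 0.01 and -0.10, the difference was -0.68 and the adjusted p was 0.438. The adjusted p of the difference was 0.122 with normexp and 0.0525 with each array divided by its SD. The last region of the fragment, at offset 70, had 0.88 and 0.27 in the shorter strands and 0.43 and 0.41 in the longer ones, and these overlap.

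Across the whole stretch the regions around Hprt1 were close to the average of the arrays. Their median log2 ratio was -0.09 in the 300–800 nt strands and 0.03 in the 100–600 nt strands, against 0.00 and 0.02 over all regions. They ranged from -1.77 to 2.34 in the longer strands, where 35 of 78 lay above 0, and from -1.05 to 1.59 in the shorter ones, where 42 of 78 did. Downstream of fragment 45327 the regions lie within the gene, since the list of origins places a region of its 3′ UTR beyond the last of them. The mean of the 42 regions after fragment 45326 minus that of the 35 before it was -0.01 and -0.06 on the 300–800 nt arrays and 0.09 and 0.02 on the 100–600 nt arrays. These 42 include the promoter region of fragment 45327. With both listed promoter regions left out, the values were -0.07 and -0.12 in the longer strands and 0.05 and -0.03 in the shorter ones. With 20 fragments on each side the mean difference was -0.39 in the longer strands and -0.047 in the shorter ones.

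**Figure D2:**
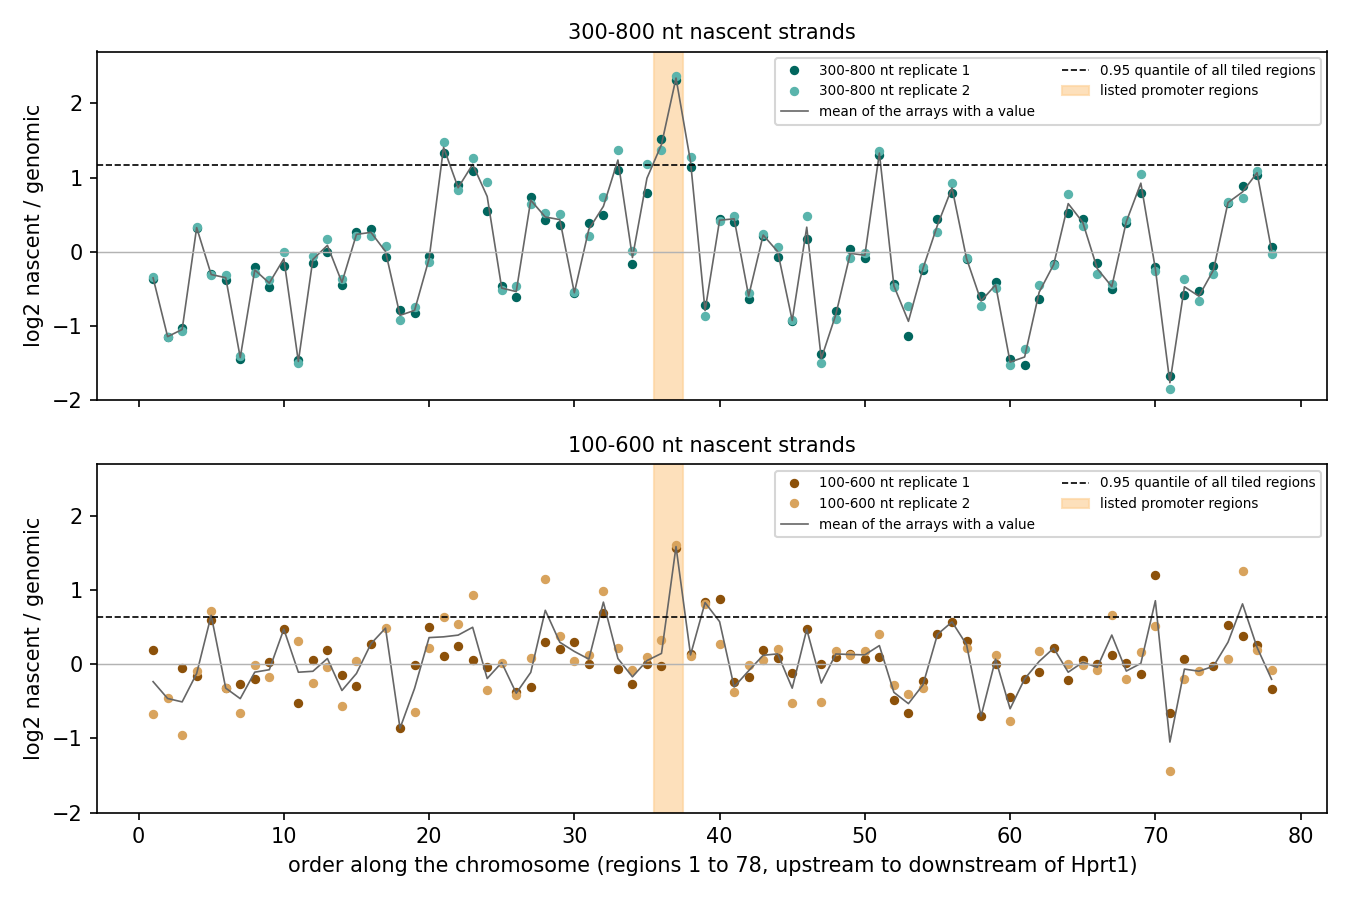
Log2 ratio of nascent to genomic signal (vertical axis) of the 78 regions in chromosome order (horizontal axis), for 300–800 nt strands above and 100–600 nt strands below, with points for arrays, a line for their mean and a dashed line for the 0.95 quantile of all regions. The shaded promoter regions hold the highest value in both panels, 2.34 above and 1.59 below.

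The region of fragment 45326 stood above the mean of the other 77 regions by 1.59 and 1.40 on the 300–800 nt arrays, and by a mean of 0.71 with normexp. On the 100–600 nt arrays it differed from them by -0.09 and 0.27, so its position there had no constant sign. When both listed promoter regions were averaged and left out of the rest, the excess was 2.02 and 1.93 in the longer strands and 0.73 and 0.94 in the shorter ones, positive on 4 of 4 arrays. An exact two-sided sign-flip test over 4 arrays cannot give a p below 0.125, and over 2 arrays not below 0.5. With the 300–800 nt arrays as 1 sample, 3 samples are left and it cannot go below 0.25. These differences are therefore given without a call.

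A region was taken as positive when it exceeded the 0.95 quantile of all regions in its fraction, a log2 ratio of 1.16 for 300–800 nt and 0.64 for 100–600 nt. By construction 5.00% of all regions are positive in either fraction. Around Hprt1 there were 7 positive regions (8.97%) in the 300–800 nt strands and 7 in the 100–600 nt strands. The first count was 2 with median centring or normexp and 4 without 300–800 nt replicate 2, and the second was 4 with median centring. The CpG-rich region of fragment 45327 was the only one of the 78 positive in both fractions (1.28%), and 0.682% of all regions were. The 7 that were positive in the shorter strands were the same 7 that passed the limma test there. Both rest on the same 100–600 nt means, so the overlap is not separate support.

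**Figure D3:**
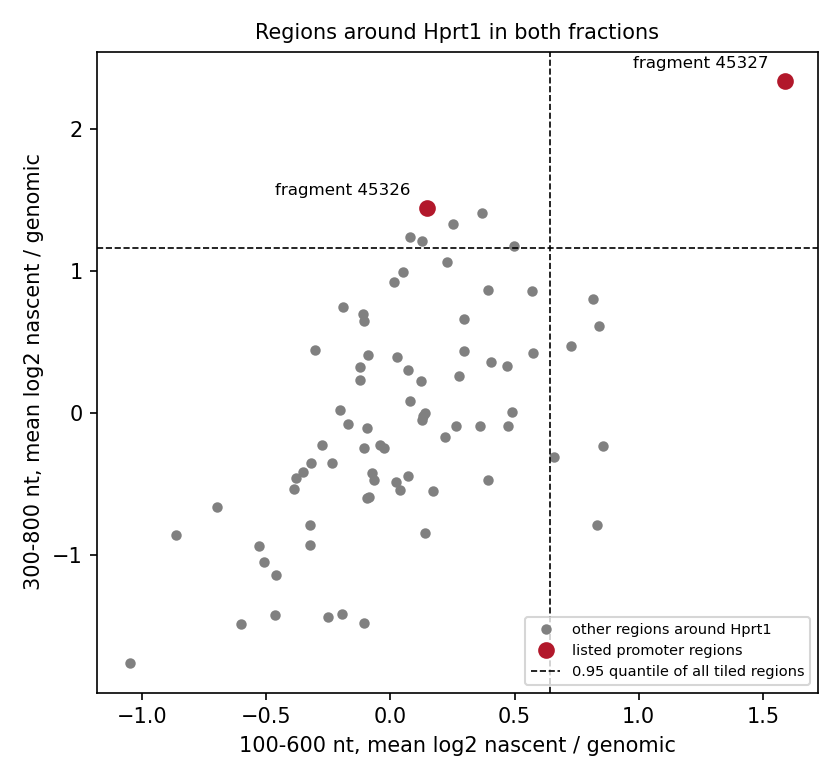
Mean log2 ratio of each of the 78 regions in 300–800 nt strands (vertical axis) against 100–600 nt strands (horizontal axis), with the 2 listed promoter regions in red and the 0.95 quantile of each fraction as dashed lines. Fragment 45327, at 1.59 and 2.34, is alone in the upper right corner, and fragment 45326 lies above the horizontal line and left of the vertical one.

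Besides the listed promoter regions, 5 regions were positive in the 300–800 nt strands, 3 of them upstream and 2 downstream. The highest of these, at offset 180 of fragment 45306, had 1.33 and 1.48 in the longer strands and 0.11 and 0.63 in the shorter ones. Fragment 45341, within the gene, had 1.30 and 1.36 against 0.10 and 0.40. Fragment 45322, a short way upstream of the promoter, had 1.10 and 1.37 against -0.06 and 0.22. These regions were picked by their 300–800 nt means, which favours a higher value there than in the shorter strands. The differences of 1.04, 1.08 and 1.16 are therefore given without a call. With normexp their 300–800 nt means were 0.65, 0.51 and 0.37.

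The lowest regions of the stretch in 300–800 nt strands were spread over both flanks. The region at offset 90 of fragment 45362 had -1.68 and -1.85 there and -0.66 and -1.44 in the shorter strands, low on all 4 arrays. With normexp its 300–800 nt mean was -0.997. Fragment 45335 had -1.38 and -1.50 in the longer strands (mean -0.80 with normexp) and fragment 45292 had -1.44 and -1.41, and in the shorter strands their means were -0.25 and -0.46. Fragment 45351 had -1.45 and -1.53 in the longer strands and a mean of -0.60 in the shorter ones. Its order turned round with median centring, which gave -0.16 and -0.21 in the longer strands and -1.62 and -2.15 in the shorter ones. Fragment 45295 had -1.47 and -1.50 in the longer strands and -0.52 and 0.31 in the shorter ones, and its difference of -1.37 (SE 0.407) passed the test (limma adjusted p = 0.0470). That call was lost without 300–800 nt replicate 2 (adjusted p = 0.0510), with marked spots kept (0.0838), with regions missing on an array kept (0.0504), with each array divided by its SD (0.285) and with normexp (0.381). Its sequence is printed because it is the one region away from the promoter and the gene start that was called between the fractions, with its CpG in capitals.
Fragment 45295, offset 10: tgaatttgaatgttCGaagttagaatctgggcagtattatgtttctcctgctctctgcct

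In all, 1 of the 64 tested regions was higher in 300–800 nt strands and 2 were lower, where 4.82% of all regions tested were higher and 2.20% lower. The count around Hprt1 is thus near the share over the arrays. With the 4 arrays each taken as a replicate, 13 of the 64 regions were higher and 12 lower, where 18.9% and 16.2% of all regions were.

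The profile of the stretch was most similar between the 300–800 nt arrays. Over the regions with a value on both, the Pearson correlation was 0.99 between the 300–800 nt arrays (n = 78) and 0.66 between the 100–600 nt arrays (n = 64), and the means of the fractions correlated at 0.60 (n = 78). Over all regions of the arrays the last value was 0.36 (n = 19635). Around Hprt1 the first 100–600 nt array correlated with the single 300–800 nt arrays at 0.46 and 0.44 (n = 74). The second did so at 0.63 and 0.60 (n = 68), close to the 0.66 within its own fraction. These correlations are across regions, which share arrays and base composition and are not independent replicates.

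Base composition changed at the promoter and the gene start. The regions were 30.0% to 68.3% C+G with a median of 37.5%, against 41.7% over all regions, and 3 of 78 were above 60%, namely those of fragments 45327 and 45328 at offsets 20, 600 and 330. The log2 ratio correlated with C+G content at 0.41 in the 100–600 nt strands and 0.23 in the 300–800 nt strands (Pearson, n = 78), and at 0.30 and 0.14 without the 2 listed promoter regions (n = 76). After a linear correction for C+G content over all regions the CpG-rich region kept log2 ratios of 1.32 and 1.21 in the shorter strands and 2.29 and 2.37 in the longer ones. The 3 C+G-rich regions, all within the promoter and the start of the gene, had different values in the fractions: both fractions were high in the first, the longer strands alone in the second and the shorter strands alone in the third.

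Hprt1 was compared with other CpG island promoters of the study's list, each by its listed region with the highest 300–800 nt mean. Among 35 such promoters Hprt1 ranked 5 in the 300–800 nt strands and 6 in the 100–600 nt strands. It was 1 of 24 that were positive in both fractions, where 0.682% of all regions were. The list was drawn from the 300–800 nt arrays and all 35 were positive there, so only the 100–600 nt part of that count was open. Over the 4 arrays, the promoters whose values were nearest to those of Hprt1 included Notch2, a receptor of the Notch pathway, and Za20d1, at distances of 0.526 and 0.584 log2 units. Notch2 had 1.89 and 2.02 in the shorter strands and 2.32 in both arrays of the longer ones. Za20d1 had 1.38 and 1.42 against 1.94 and 2.01. The longer strands exceeded the shorter ones by 0.36 in Notch2 and 0.57 in Za20d1, against 0.75 in Hprt1.

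Other CpG island promoters in the same tiled part of the X chromosome varied in the balance of the fractions. Rap2c, a Ras-related small GTPase gene, had 1.12 and 0.97 in the shorter strands and 2.50 and 2.66 in the longer ones. The difference was 1.53. Phf6, a PHD finger gene and the neighbour of Hprt1 upstream, had 0.59 and 0.63 against 1.89 and 1.98, a difference of 1.33. Mbnl3, a muscleblind-like RNA-binding protein gene listed as Mbn13, had 0.56 and 0.24 against 2.94 and 2.86, a difference of 2.50. The glypican gene Gpc3 had 0.74 and 0.97 against 2.13 and 2.09, a difference of 1.25. Hs6st2, a heparan sulfate sulfotransferase gene, had close values in both fractions, with 1.17 and 1.42 against 1.46 and 1.32, a difference of 0.096. The promoter listed as 1700013H16Rik had 0.05 and -0.05 against 1.99 and 1.89, a difference of 1.94. The one listed as LOC100040271 had 0.32 and 1.63 against 2.09 and 2.08, a difference of 1.10. Gpc4 had 1.39 on the one 100–600 nt array with a value against 1.83 on both 300–800 nt arrays and was not in the fit. The 0.75 of Hprt1 lies between the difference of Hs6st2 and those of the others in the fit, and no contrast between promoters was tested. Each of these regions was picked by its 300–800 nt mean, which favours a higher value in the longer strands. The differences are therefore given without a call.

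**Figure D4:**
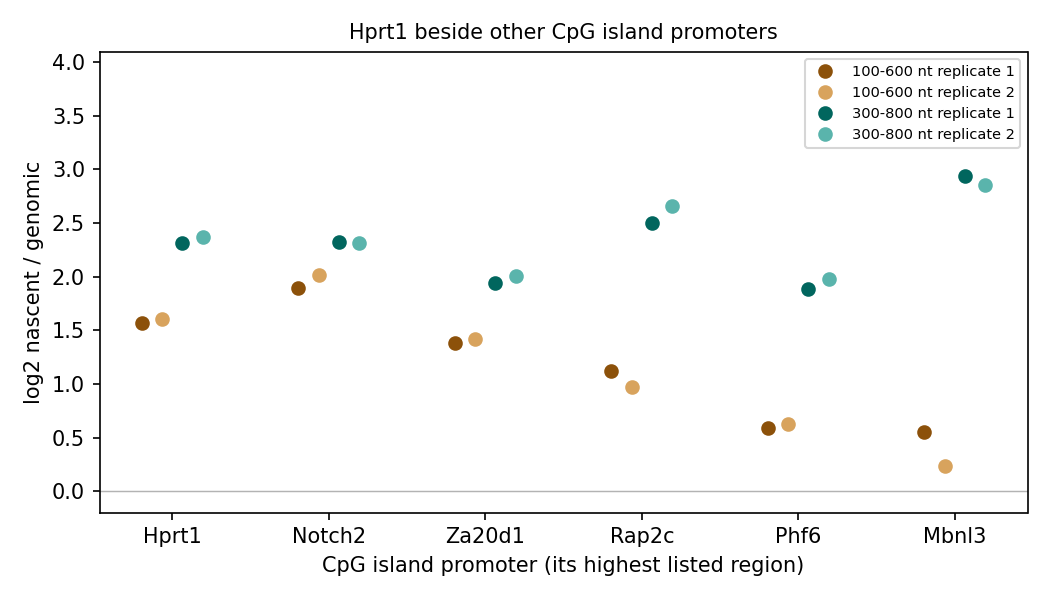
Log2 ratio of nascent to genomic signal (vertical axis) of the highest listed region of 6 CpG island promoters, with 1 point per array. Hprt1, Notch2 and Za20d1 have 100–600 nt values from 1.38 to 2.02, and Rap2c, Phf6 and Mbnl3 from 0.24 to 1.12, while the 300–800 nt values of all 6 lie between 1.89 and 2.94.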

How the data were processed

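For each array the authors deposited Agilent Feature Extraction output with signal intensities of both dyes per spot. Per the file headers, background was subtracted from both sets of intensities, the dyes were balanced on the 300–800 nt arrays alone, and these also hold a deposited log10 ratio, used here only as an alternative. The study's own loess values and window statistics were not used here.

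Log2 ratios of the processed signals were normalised by loess (span 0.3) in limma 3.58.1 under R 4.3.3. Control spots and spots marked as non-uniform, outlying, not found or set aside by hand were left out, saturated spots were kept, and spots of a probe were averaged. The fractions were compared by lmFit and eBayes over 3 samples, with Benjamini-Hochberg adjustment at 0.05. The fit was tested on simulated data. It recovered large shifts, missed nearly all small ones and made more false calls than the threshold allows, so adjusted p-values close to 0.05 may be too small.

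The regions, lists and tests were chosen with earlier results of these data known. The promoter was defined by fragment 45326. The files showed that the listed promoter probes lie in fragments 45326 and 45327, so values for both are given, and the version with both was added after their values had been seen. Regions named are those of fragment 45326, its neighbours, the 5 highest and 5 lowest others in 300–800 nt strands, those positive in both fractions or called between them, the CpG island promoters of Rap2c, Phf6 and Mbnl3, and the 3 listed promoters nearest to Hprt1, of which 1 is not reported here. Some regions were added after seeing their values. They are the remaining ones of fragments 45323 and 45328, those of fragments 45307 and 45309, and offset 300 of fragment 45362. The promoters of Gpc3, Gpc4, Hs6st2, 1700013H16Rik and LOC100040271 were added in the same way. The normexp alternative (offset 50) used median signals. The precision is limited by the number of arrays.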

Additional observations from a re-analysis of the deposited data

How the results depend on the processing

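Of 136 recomputed values, 8 changed sign. A further 30 moved, namely counts by over 1.5 times and the value of fragment 45326 by over the SD between arrays, with its direction kept. The other 98 stayed within these limits or, for differences between flanks or from them, kept their sign. With median centring the value of fragment 45326 was 1.14 in 300–800 nt strands and -0.15 in 100–600 nt strands, its excess over the flanks in the latter was -0.094 and the downstream minus upstream difference -0.057. That setting left 2 and 4 positive regions around Hprt1 in the longer and shorter strands, and 3 regions, with 358 over the arrays, above genomic DNA in the shorter ones. Normexp gave 0.65 for fragment 45326 and 0.045 for the downstream minus upstream difference, both in 300–800 nt strands, and 2 positive regions there. Under it limma called 0 regions around Hprt1 and 44 over the arrays between the fractions, and 1 and 133 above genomic DNA. At an unadjusted limma p under 0.05 there were 5 of 64 regions around Hprt1 and 1691 of 15478 over the arrays. The share around Hprt1 was thus the smaller one. Keeping marked spots left 1 and 723 calls between the fractions, where 3 and 1086 are reported. Dividing each array by its SD left 0 and 246. With that division 7 of 64 and 2316 of 15478 regions had an unadjusted limma p under 0.05, again a smaller share around Hprt1. With a C+G correction 2 regions were positive in both fractions. The deposited log10 ratio, which nearly repeats the median-centred values, gave 1.14 for fragment 45326 in 300–800 nt strands and 2 positive regions. With 20 fragments on each side the 100–600 nt excess was -0.022 and the downstream minus upstream difference -0.047, and the latter was -0.39 in 300–800 nt strands. At the 0.99 quantile 1 region was positive in each fraction. Taking the listed promoter region with the highest ratio, chosen after seeing the data, gave 2.34 and 1.59.

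With the 4 arrays as replicates, 25 regions around Hprt1 and 5427 over the arrays were called between the fractions, and 1828 over the arrays above genomic DNA. With the hybridisation number as a replicate block these counts were 26, 5832 and 2013. The numbers are not documented as pairs, and the differences between replicates 1 and 2 correlated at -0.00974 between the fractions over all regions. Leaving out 1 array at a time, fragment 45326 ranged from -0.027 (without 100–600 nt replicate 2) to 0.32 in the shorter strands and its excess there from -0.088 to 0.27. Positive regions in 300–800 nt strands ranged from 4 (without 300–800 nt replicate 2) to 8, and those positive in both fractions from 1 to 2. Calls without a 100–600 nt array could not be fitted, since 2 samples leave no residual degree of freedom. The causes were not tested.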
